A study of Mus musculus with 6 samples.

Results

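The genes described here are 9 mouse orthologs of genes that, when mutated in people, cause polyglutamine disease or hereditary ataxia other than spinocerebellar ataxia type 1 (SCA1): *Atxn2*, *Atxn3*, *Atxn7*, *Atxn10*, *Ppp2r2b*, *Tbp*, *Atn1*, *Htt* and *Spg7*. They were chosen by name, and all 9 were found among the 32286 genes listed in the count tables. Nuclei came from whole cerebella of 3 *Pcp2-ATXN1[82Q]* mice (SCA1 mice below), which carry mutant human *ATXN1* under the *Pcp2* promoter, active in Purkinje cells, and of 3 wild-type (WT) littermates. All mice were 12 weeks old and on a C57BL/6 background, and each gave 1 library of single nuclei RNA sequencing, in which a unique molecular identifier (UMI) marks every captured transcript.

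In polyglutamine disease a repeat within the coding sequence lengthens, and the protein gains a long run of glutamines that makes it aggregate and harms particular neurons, although the genes are active in most cells. Cerebellar Purkinje cells are among the neurons lost in many of these diseases. *Atxn2* (SCA2), *Atxn3* (SCA3), *Atxn7* (SCA7), *Tbp* (SCA17) and *Atn1* (dentatorubral-pallidoluysian atrophy) belong to this class. In *ATXN10* (SCA10) the repeat that expands is intronic, in *PPP2R2B* (SCA12) it lies outside the coding sequence, and *SPG7* causes spastic paraplegia and ataxia through loss of function. *Htt*, the gene of Huntington disease, is also of the polyglutamine class.

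Glutamine codon runs of the mouse genes are shown because a run of such codons lengthens in the human diseases. Below are the longest in-frame runs of glutamine codons in the longest coding transcript of each of 4 of the genes, 5′ to 3′ on the coding strand, with the run in capitals and 15 bases on each side in lower case (GRCm38, GENCODE annotation). The runs lie in coding exons.
*Atxn2*, chr5:121810946-121810954, plus strand: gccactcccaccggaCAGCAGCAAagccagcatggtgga
*Atxn3*, chr12:101926563-101926580, minus strand: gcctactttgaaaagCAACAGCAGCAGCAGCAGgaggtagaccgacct
*Atxn7*, chr14:14013156-14013170, plus strand: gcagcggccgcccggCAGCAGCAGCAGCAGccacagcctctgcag
*Tbp*, chr17:15504391-15504429, plus strand: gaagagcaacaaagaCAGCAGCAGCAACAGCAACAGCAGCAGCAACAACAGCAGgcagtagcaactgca
Of these 4, *Tbp* had the longest run, with 13 glutamine codons, 9 of them CAG and 4 CAA. *Atxn3* had 6, *Atxn7* 5 and *Atxn2* 3. The run of *Atxn2* lies at codons 1129 to 1131 of 1286, in exon 22, whereas the repeat that lengthens in SCA2 lies near the start of the human protein. The longest run was 2 codons in *Spg7* and in *Ppp2r2b* and 1 in *Atxn10*.

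Each library had between 18916647 and 98366627 UMIs in 3354 to 10897 nuclei, and pairs of libraries shared 7 to 44 nucleus barcodes. Nuclei carried one of 24 labels assigned by the authors, of which 16 had at least 50 nuclei and 13 had at least 10 nuclei in every mouse and were tested. In the Purkinje label human *ATXN1* gave 12, 15 and 19 UMIs in the SCA1 mice and 0 in each WT mouse, while over all nuclei it gave 57, 60 and 60 UMIs in SCA1 and 37, 17 and 15 in WT mice. Marker lists fitted the labels of the main types, which are granule neurons, oligodendrocytes (OL), Purkinje cells (PCs), velate astrocytes (VA) and the radial Bergmann glia (BG), with the 6 Purkinje markers summing to 14978 counts per 1000000 UMIs (CPM) in PCs against 511 to 1248 in the other labels. The label Endothelial_Tip.Dcn.Nnat went against its name, since its 4 fibroblast markers summed to 974 CPM and its 4 endothelial markers to 171 CPM, and its nuclei are called Dcn.Nnat nuclei here. Of the 458 nuclei labelled Pvalb-Rab3b, 0 lay in a cluster where that label was the most frequent, against 38 of the 263 labelled Pvalb-Chrm2 and 115 of the 240 labelled Lgi2. These interneurons, Dcn.Nnat nuclei and Slc17a6.Nrgn and Slc17a6.Sln neurons could not be tested in nuclei whose label matched their cluster. Each of these labels had fewer than 10 such nuclei in some mouse. Such nuclei were still 211 of the 242 Dcn.Nnat nuclei, 733 of the 757 Slc17a6.Nrgn neurons and 81 of the 104 Slc17a6.Sln neurons. The 5 granule neuron markers, summed, reached on average 32.4% of their granule neuron level in Slc17a6.Sln neurons, 19.8% in VA, 18.5% in OL, 14.8% in BG and 5.43% in PCs, and the part of such RNA in the levels below was not tested.

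The first question was where in the cerebellum each gene was highest. Levels are CPM of UMIs summed per mouse and label, scaled by TMM, a correction for differences in composition between sums, and are compared between labels, not between genes. Each label was also tested against the mean of the other 12 tested labels with edgeR, blocking on mouse. Of 117 pairs of gene and label, 47 passed at an adjusted p of at most 0.05, 24 higher and 23 lower, which was 40.2% of the pairs beside 42.9% of all gene and label pairs tested. That share was near the background. What differed among them was how widely they ranged, 17.5-fold over the 13 tested labels for *Ppp2r2b* and 1.89-fold to 2.20-fold for the other 8 genes. Divided by UMI totals only, *Ppp2r2b* ranged 17.6-fold and the other 8 genes from 1.56-fold (*Spg7*) to 3.58-fold (*Atn1*, lowest in PCs).

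By label, BG had 5 of the 9 genes higher (27.6% of all genes tested there) and 0 lower (24.8%). VA had 4 higher (26.9%) and 1 lower (23.7%), and OL 1 higher (29.3%) and 3 lower (26.1%). Granule neurons had 3 higher (34.7%) and 3 lower (24.4%), and PCs 5 higher (30.4%) and 3 lower (27.6%), a split that depends on the scaling as given further on. No gene was higher in Pvalb-Nefh interneurons (17.6%), where 3 were lower (14.6%), or in Pvalb-Cadm1 interneurons (16.2%), where 2 were lower (13.6%). Pvalb-Rab3b interneurons had 1 higher (15.0%) and 2 lower (10.8%), Pvalb-Chrm2 interneurons 1 higher (21.8%) and 0 lower (13.8%), and Lgi2 interneurons 1 higher (22.1%) and 1 lower (15.5%). Slc17a6.Nrgn neurons had 2 higher (27.9%) and 2 lower (20.1%), Dcn.Nnat nuclei 1 higher (25.5%) and 3 lower (27.4%), and Slc17a6.Sln neurons 0 higher (10.4%) and 0 lower (10.4%).

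**Figure D1:**
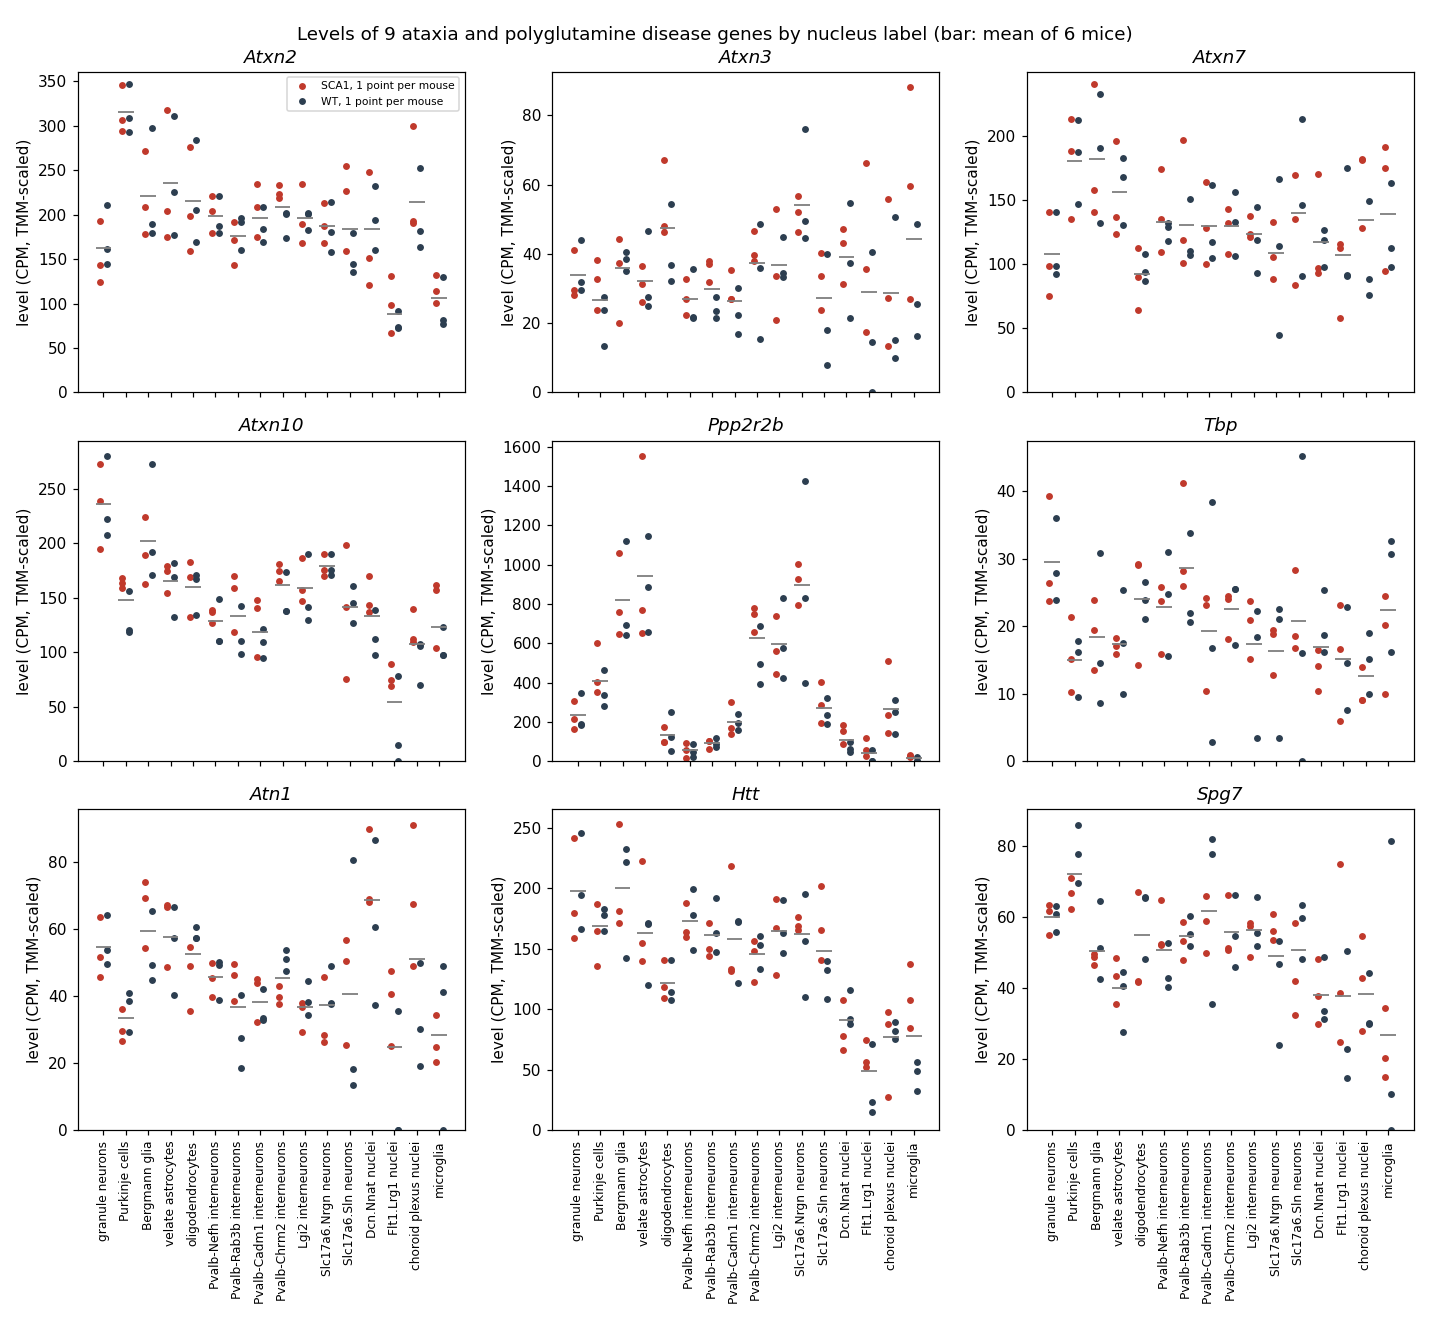
Level of each gene (CPM, TMM-scaled, linear axis from 0) in the 16 labels, with 1 point per mouse (SCA1 red, WT dark) and a bar at the mean of 6 mice. *Ppp2r2b* spans from 15.8 CPM in microglia to 945 CPM in VA, while SCA1 and WT points are intermixed in most labels.

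*Ppp2r2b*, which encodes a brain regulatory subunit of protein phosphatase 2A, passed the test in 12 of 13 labels, 6 in each direction. In VA its level was 771, 654 and 1554 CPM in the SCA1 mice and 657, 884 and 1148 CPM in the WT mice. BG gave 760, 648 and 1057 CPM in SCA1 and 640, 692 and 1123 CPM in WT mice. Both astroglial labels were therefore above every mouse's level in granule neurons, where the highest mouse had 345 CPM.

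VA was higher than the mean of the other labels by 1.85 ± 0.14 (log2, SE; 3.60-fold), and BG by 1.62 ± 0.14 (3.07-fold). Among neurons, the excitatory label Slc17a6.Nrgn was higher by 1.73 ± 0.14, with 399 CPM in the lowest mouse, 878 as the median and 1424 in the highest. Pvalb-Chrm2 interneurons were higher by 1.25 ± 0.15 and Lgi2 interneurons by 1.14 ± 0.15. Of the other GABAergic interneuron labels, Pvalb-Nefh and Pvalb-Rab3b were the lowest of the 13 tested labels, and Pvalb-Cadm1 was near granule neurons.

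In Pvalb-Nefh interneurons *Ppp2r2b* was at 94.7, 55.5 and 17.4 CPM in SCA1 and 87.9, 21.7 and 47.6 CPM in WT mice, lower than the mean of the other labels by a log2 value of -2.49 ± 0.21. Pvalb-Rab3b interneurons followed with -1.80 ± 0.21, Dcn.Nnat nuclei with -1.43 ± 0.21 and OL with -1.27 ± 0.19. The edgeR adjusted p of these labels and of the higher ones above was at most 2.32e-08. Granule neurons (-0.53 ± 0.17) and Pvalb-Cadm1 interneurons (-0.55 ± 0.19) were lower with adjusted p of 0.00518 and 0.0187. Microglia, with too few nuclei to be tested, held 18 *Ppp2r2b* UMIs in all.

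*Atxn2*, an RNA-binding protein of translation and stress granules, was highest in PCs with TMM scaling. Its level there was 307, 294 and 346 CPM in SCA1 and 309, 293 and 347 CPM in WT mice, a mean of 316 ± 24.5 CPM (SD, n = 6). The next label, VA, had 235 ± 64.3 CPM, and PCs were above VA in 6 of 6 mice. Divided by UMI totals only, the means were 207 CPM in PCs, 211 CPM in Dcn.Nnat nuclei, 224 CPM in VA and 266 CPM in the choroid plexus label, so that the place of PCs depends on the scaling. In granule neurons it was lowest of the tested labels, at 163 ± 32.6 CPM.

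Against the mean of the other labels *Atxn2* was higher in PCs by 0.73 ± 0.07 (log2, SE; edgeR adjusted p = 3.82e-14) and in VA by 0.22 ± 0.08 (adjusted p = 0.0161), and lower in granule neurons (-0.52 ± 0.08, adjusted p = 1.3e-08). *Atxn7*, a subunit of the SAGA complex that modifies histones, was higher in BG by 0.48 ± 0.09 and in VA by 0.27 ± 0.09, and lower in granule neurons (-0.50 ± 0.09), OL (-0.56 ± 0.10) and Slc17a6.Nrgn neurons (-0.26 ± 0.10). BG held 182 ± 46.5 CPM and OL 92.4 ± 17.0 CPM of it (SD, n = 6).

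*Atxn10*, needed for neuron survival and neurite growth, was highest in granule neurons, at 194 to 280 CPM with a median of 231, and lay above BG, the next label, in 6 of 6 mice. Granule neurons were higher by 0.47 ± 0.07 and BG by 0.38 ± 0.08, and Pvalb-Cadm1 (-0.41 ± 0.10) and Pvalb-Nefh interneurons (-0.35 ± 0.08) were lower. *Htt*, a large scaffold for vesicle transport, was higher in BG by 0.37 ± 0.07 and lower in Dcn.Nnat nuclei (-0.79 ± 0.09) and OL (-0.38 ± 0.08). Its level fell from 201 ± 42.3 CPM in BG to 91.1 ± 18.4 CPM in Dcn.Nnat nuclei (SD, n = 6).

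*Atxn3*, a deubiquitinase, was higher in Slc17a6.Nrgn neurons by 0.69 ± 0.10 and in OL by 0.48 ± 0.11, and lower in Pvalb-Nefh interneurons (-0.46 ± 0.11). Slc17a6.Nrgn neurons held 44.7 to 76.0 CPM of it, with a median of 50.8. *Tbp*, the TATA-binding protein that starts transcription, was higher in granule neurons by 0.40 ± 0.11 and in Pvalb-Rab3b interneurons by 0.54 ± 0.18. *Atn1*, a transcriptional corepressor, was higher in Dcn.Nnat nuclei by 0.69 ± 0.13, in BG by 0.44 ± 0.10 and in VA by 0.41 ± 0.11, and lower in Lgi2 interneurons (-0.41 ± 0.14) and Slc17a6.Nrgn neurons (-0.36 ± 0.11). *Spg7*, paraplegin of the mitochondrial inner membrane protease, was lower in VA (-0.38 ± 0.11).

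**Figure D2:**
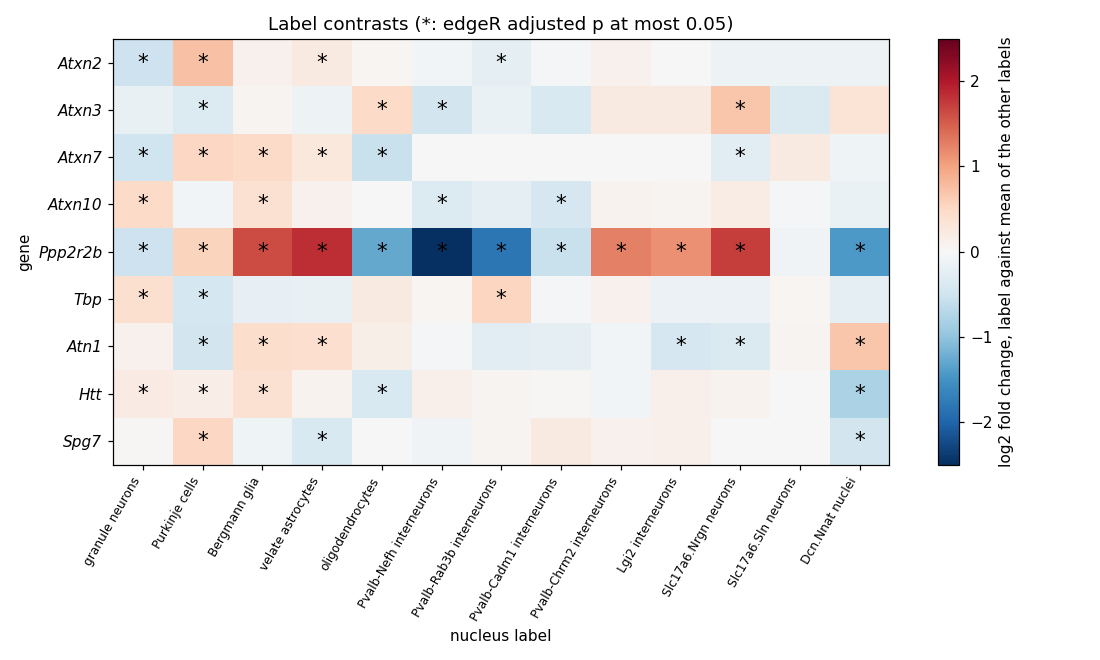
Color gives the log2 fold change of each gene (rows) in each of 13 labels (columns) against the mean of the other labels, and a star an edgeR adjusted p of at most 0.05. *Ppp2r2b* holds 12 of the 47 stars, with 1.85 in VA and -2.49 in Pvalb-Nefh interneurons at its ends.

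The order of neighbouring labels was rarely fixed. Over the 15 neighbouring pairs of the 16 labels, the order was the same in all 6 mice for 2 pairs in *Atxn2*, *Ppp2r2b* and *Htt*, for 1 pair in *Atxn7* and *Atxn10*, and for 0 pairs in *Atxn3*, *Tbp*, *Atn1* and *Spg7*. For all other neighbours at least 1 mouse had the reverse or an equal order.

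With a mouse left out, 34 of the 47 calls were kept whichever mouse it was, and 13 missed the threshold for at least 1 mouse, with the direction unchanged and an edgeR adjusted p of 0.0509 to 0.322. *Atxn2* lost its call in VA without SCA1 mouse 3 (0.15) or WT mouse 3 (0.19), and in Pvalb-Rab3b interneurons without any mouse but WT mouse 2 (-0.23 to -0.20). *Atxn7* lost it in VA (0.25 and 0.24) and Slc17a6.Nrgn neurons (-0.24 and -0.22) without SCA1 mouse 2 or 3, as did *Atn1* in Slc17a6.Nrgn neurons (-0.28 and -0.28). *Tbp* lost it in PCs (-0.38 and -0.38) and Pvalb-Rab3b interneurons (0.50 and 0.45) without SCA1 mouse 1 or 3, and *Atn1* in Lgi2 interneurons without either of these (-0.39 and -0.35) or WT mouse 1 (-0.34). *Htt* lost it in PCs without SCA1 mouse 1 (0.14) or any WT mouse (0.09 to 0.18), and in granule neurons without SCA1 mouse 3 (0.16). *Ppp2r2b* lost it in Pvalb-Cadm1 interneurons without SCA1 mouse 1 or 2 or WT mouse 3 (-0.51 to -0.49), *Spg7* in Dcn.Nnat nuclei without SCA1 mouse 3 (-0.31) and *Atxn3* in PCs without SCA1 mouse 1 (-0.34).

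Some of these calls also depended on other settings. *Htt* in granule neurons, at 0.20 as reported, was not called with DESeq2 (0.08) or with RLE factors (0.08), another scaling of the sums. In PCs *Htt* missed the threshold with DESeq2 (0.13), RLE factors (0.12) and low-count genes kept (0.10). *Atxn2* missed it in VA (0.20) and Pvalb-Rab3b interneurons (-0.18) with low-count genes kept, and in both (0.17 and -0.22) in nuclei of at least 3000 UMIs. In nuclei whose label matched their cluster, where 7 labels were left to compare, 6 calls were lost, which were *Ppp2r2b* in granule neurons (-0.31) and Pvalb-Cadm1 interneurons (-0.41), *Htt* in granule neurons (0.09) and PCs (0.11), *Atxn2* in VA (0.16) and *Atxn3* in PCs (-0.21). In WT mice alone, with 3 samples a label, 23 of the 47 were lost, *Ppp2r2b* (-0.44) and *Htt* (0.21) in granule neurons among them.

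The Purkinje label needs a reading on both scales. Without TMM factors, dividing by UMI totals only, the median of all 13286 genes in the PC contrast moved by -0.55 (log2), and the genes called went from 30.4% higher and 27.6% lower to 14.5% higher and 60.2% lower. With TMM 5 of the 9 genes were higher in PCs and 3 lower, and with totals only 1 was higher and 5 lower. *Atxn2* was higher on both scales, by 0.73 ± 0.07 and 0.16. *Atn1* (-0.47 and -1.02), *Tbp* (-0.44 and -0.99) and *Atxn3* (-0.35 and -0.90) were lower on both.

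*Htt* changed sides, from 0.17 ± 0.07 with TMM to -0.39 with totals only. *Ppp2r2b* (0.55 and -0.01), *Atxn7* (0.52 and -0.05) and *Spg7* (0.52 and -0.04) were called higher with TMM only, and *Atxn10* (-0.06 and -0.62) was called lower with totals only. Of the other labels, the median of all genes moved by over 0.1 in Dcn.Nnat nuclei (0.27) and Slc17a6.Sln neurons (0.20), where *Spg7* lost its call in Dcn.Nnat nuclei, from -0.46 to -0.20, while *Atxn3* gained one there (0.34 to 0.61) and *Atxn7* in Slc17a6.Sln neurons (0.22 to 0.44). Elsewhere *Atxn2* lost its call in Pvalb-Rab3b interneurons (-0.22 to -0.15), and *Atxn3* in granule neurons (-0.18 to -0.22) and *Spg7* in Pvalb-Cadm1 interneurons (0.23 to 0.30) gained one. Of all 117 pairs, 106 kept their call between the scales.

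**Figure D3:**
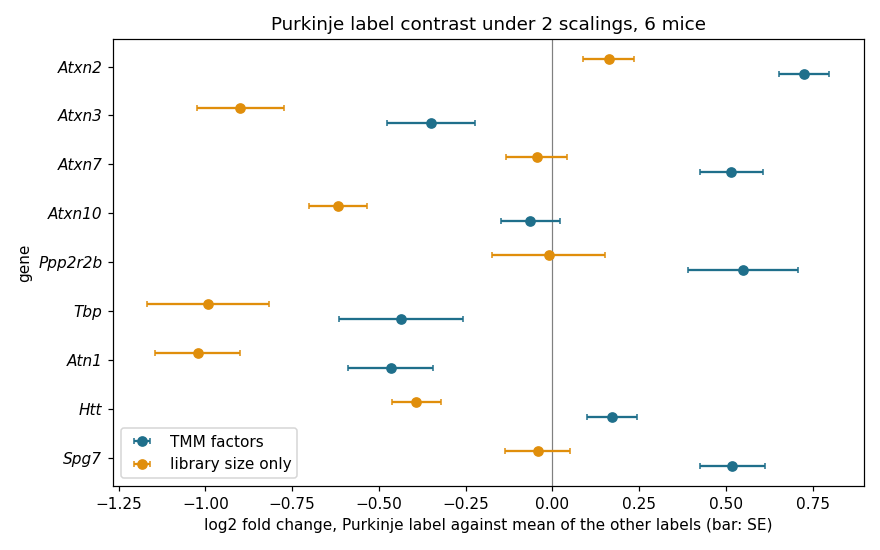
Log2 fold change of each gene in PCs against the mean of the other labels (bars, SE; 6 mice) with TMM factors (blue) and with library size only (orange). Every gene moves to the left without TMM, *Atxn2* stays above 0 at 0.16, and *Htt* goes from 0.17 to -0.39.

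The second question was whether any of the 9 genes differed between SCA1 and WT mice. In the sums over all nuclei and in the 13 labels, 0 of 122 tests of a gene passed (edgeR, genotype and sequencing run, inferred from library numbers, as terms), 1 had an unadjusted p under 0.05, and DESeq2 also called 0. The background was as low, with 0.00203% of all gene tests called, 3 of 147680, at 0.00566% in granule neurons, 0.00917% in OL, 0.0051% over all nuclei and 0% in the other 11 labels. The lowest adjusted p of the 9 genes was 0.905. Too few counts for a test were found in 4 pairs of gene and label, *Tbp* in Dcn.Nnat nuclei and *Atxn3*, *Tbp* and *Atn1* in Slc17a6.Sln neurons.

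In PCs, where the promoter of the transgene is active, *Atxn2* differed by 0.02 ± 0.18 (log2, SE), with a 95% confidence interval from -0.39 to 0.43. *Htt* differed by -0.09, with an interval from -0.53 to 0.35. The interval was widest for *Tbp*, with 5 to 34 UMIs per mouse in PCs, and ran from -0.94 to 0.87. The median over the 9 genes in PCs was 0.02, as over all 9821 genes tested there.

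*Atxn10* in PCs was at 168, 159 and 163 CPM in SCA1 and 156, 121 and 118 CPM in WT mice. The groups did not overlap, and the difference was 0.33 ± 0.20 (log2, SE; edgeR adjusted p = 0.905), with 0.11 in the first run and 0.43 in the second. In PCs 9.77% of all genes tested had groups that did not overlap. *Ppp2r2b* in PCs was at 403, 350 and 603 CPM in SCA1 and 280, 339 and 463 CPM in WT mice, where the groups overlapped, with a difference of 0.36 ± 0.24. *Atxn3* in PCs was at 23.7, 32.8 and 38.4 CPM in SCA1 and 23.7, 13.4 and 27.5 CPM in WT mice, with a difference of 0.48 ± 0.34 that was 0.002 in the first run and 0.80 in the second.

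The largest difference among all tests was that of *Ppp2r2b* in Dcn.Nnat nuclei. Its level was 184, 85.0 and 152 CPM in SCA1 and 97.5, 48.7 and 63.3 CPM in WT mice, from 107, 36 and 92 UMIs and from 50, 9 and 17 UMIs. SCA1 mouse 2 lay below WT mouse 1, so that the groups overlapped. The difference was 0.92 ± 0.31 (95% confidence interval 0.24 to 1.61), 0.92 in the first run and 1.08 in the second, and its edgeR adjusted p was 1.00.

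Counting all sums, the SCA1 and WT mice did not overlap for 7 of 122 pairs, 5.74%, beside 4.93% of all gene tests. Besides *Atxn10* in PCs these were *Atxn2* (0.16, higher in SCA1) and *Atn1* (-0.37) in Pvalb-Chrm2 interneurons (7.18% of all genes there), *Atxn3* in Pvalb-Rab3b interneurons (0.51, 4.97%), *Spg7* in Slc17a6.Nrgn neurons (0.32, 5.44%), *Htt* in Slc17a6.Sln neurons (0.28, 6.68%) and *Atn1* in OL (-0.36, 3.5%). None passed the test. In OL *Atn1* was at 54.4, 35.3 and 49.0 CPM in SCA1 and 57.3, 60.6 and 57.2 CPM in WT mice.

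**Figure D4:**
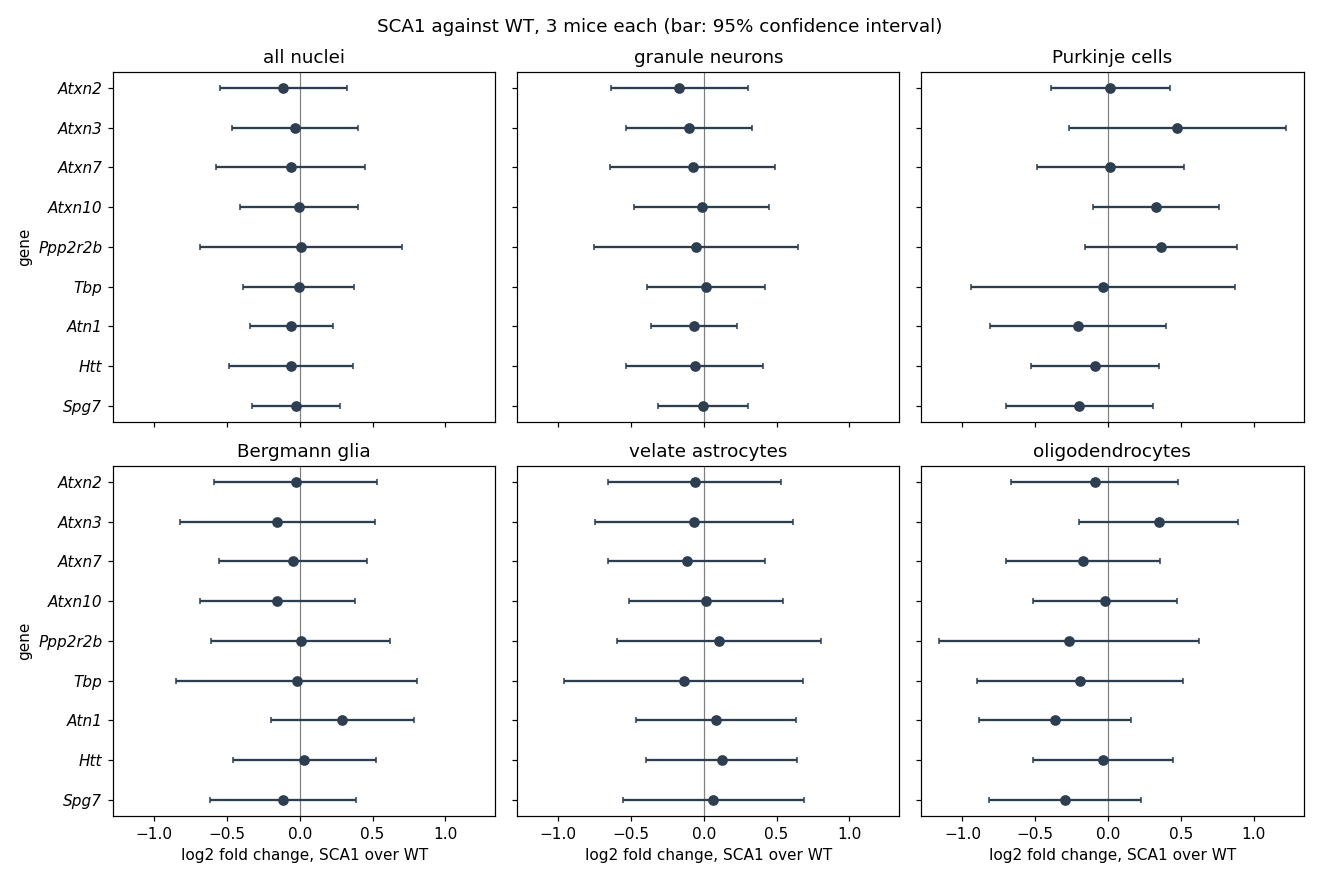
Log2 fold change of SCA1 over WT mice (3 each) for each gene in all nuclei and 5 labels. Bars are 95% confidence intervals derived from the edgeR test. Every interval shown includes 0, and in PCs they are narrowest for *Atxn2* (-0.39 to 0.43) and widest for *Tbp* (-0.94 to 0.87).

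An interaction term then asked whether the genotype difference in a label departed from the one in granule neurons. For the 9 genes 0 of 108 tests passed (edgeR), with 2 at an unadjusted p under 0.05, beside 0.00502% of all gene tests, at 0.0452% in PCs, 0.00753% each in Lgi2 interneurons and Slc17a6.Nrgn neurons and 0% in the other 9 labels. Those 2 were *Atxn2* in Slc17a6.Sln neurons, by 0.59 ± 0.25, and *Atxn3* in OL, by 0.53 ± 0.26, each with an adjusted p of 1.00.

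The paralogs and direct partners of the 9 genes, 43 in all, gave 0 genotype calls in any label by edgeR, as did 48 other hereditary ataxia genes, and DESeq2 called 0 in either list. With genes of low counts kept, edgeR called 1 pair of the ataxia genes, the astroglial glutamate transporter *Slc1a3*, lower in Pvalb-Chrm2 interneurons (named after its values were seen), 1 of 658 tests or 0.152%, beside 0.125% of all gene tests. With such genes removed it was at -1.50 ± 0.56 (adjusted p = 1.00). An unadjusted p under 0.05 was found in 4 of 515 tests of the partners (0.777%) and 23 of 544 tests of the ataxia genes (4.23%), beside 1.88% of all gene tests. With the replicate number as a block, *Itpr1*, the calcium release channel, and *Cacna1g*, a calcium channel, were lower in SCA1 mice, each in PCs and over all nuclei (both named after their values were seen), which was 4 of 544 tests, 0.735%, beside 0.149% of all gene tests with the block. In PCs *Itpr1* was at -0.61 ± 0.11 with the block (edgeR adjusted p = 0.0249) and -0.60 ± 0.36 without it (adjusted p = 0.913), and *Cacna1g* at -0.71 ± 0.14 (adjusted p = 0.0377) and -0.70 ± 0.22 (adjusted p = 0.45). Over all nuclei *Itpr1* was at -0.83 ± 0.08 and -0.82 ± 0.23, and *Cacna1g* at -0.77 ± 0.09 and -0.76 ± 0.15. SCA1 mice gave 65, 52 and 29 PC nuclei, against 76, 41 and 29 from WT mice. The limma test on single nuclei, in PCs, BG, VA and OL, called 12 of 191 pairs of the ataxia genes (6.28%), all lower, and 4 of 170 pairs of the partners (2.35%), beside 1.21% of all gene tests.

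Between labels, 105 of the 520 pairs of partner and label were higher and 92 lower, which was 37.9% of them beside 42.9% of all gene and label pairs, a share no higher than the background. Of the pairs of the 48 other ataxia genes, 44 of which were tested, 342 of 572 were called, 59.8%, with 171 in each direction. These counts are with TMM. In PCs those of the 44 ataxia genes went from 25 higher and 6 lower to 16 higher and 17 lower with totals only. Those of the 40 partners tested in PCs went from 9 higher and 11 lower to 0 higher and 30 lower. Over all genes tested in PCs the shares went from 30.4% higher and 27.6% lower to 14.5% higher and 60.2% lower. The counts by gene that follow, higher and lower together, stand beside the same 42.9% of all gene and label pairs called. Of the 91 pairs of label and partner tested for *Ppp2r2b*, 24 were higher and 21 lower. The largest called difference was that of *Ppp2r2c*, another regulatory B subunit of the phosphatase, lower in Dcn.Nnat nuclei (-1.82 ± 0.20). For *Atxn2*, 14 of 52 pairs were higher and 10 lower, led by its paralog *Atxn2l* in Pvalb-Rab3b interneurons (0.78 ± 0.09). For *Atxn7*, 17 of 91 were higher and 15 lower, led by its paralog *Atxn7l1* in OL (-0.98 ± 0.12). For *Spg7*, 9 of 52 were higher and 6 lower, led by *Afg3l2*, which forms the protease with paraplegin, in OL (-0.81 ± 0.11). *Atxn3* had 8 of 52 higher and 6 lower, led by the ubiquitin ligase *Ube4b* in BG (-0.53 ± 0.08). *Tbp* had 10 of 78 higher and 7 lower, led by its paralog *Tbpl1* in Pvalb-Cadm1 interneurons (0.74 ± 0.15), and *Atn1* had 5 of 39 higher and 5 lower, led by the histone deacetylase *Hdac1* in Pvalb-Nefh interneurons (-0.84 ± 0.14). *Atxn10* had 9 of 26 higher and 6 lower, led by the G protein subunit *Gnb2* in PCs (-2.00 ± 0.16). *Htt* had 9 of 39 higher and 16 lower, led by the repressor *Rest* in Pvalb-Cadm1 interneurons, where its mean was 0.214 CPM, too low for a fold.

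The genes whose level followed each disease gene most closely over the 16 labels were found by Pearson's r of mean log2(CPM + 1), as a description, since labels share libraries and depth. For *Atxn2* these were the antisense gene *Gm16552* (r = 0.96), which overlaps it, *Rtn4ip1* (0.94) and *Ttll4* (0.93), and whether the counting kept the strands apart is not given in the sources used here. *Htt* was followed by *Snrnp70* (0.97), *Rfx7* (0.97) and *Bcl2l13* (0.96), and *Spg7* by *Pigq* (0.96), *Zfp445* (0.96) and *Sugp1* (0.95). *Atn1* was followed by *Pfn2* (0.96), *Mier3* (0.94) and *Lin52* (0.94), and *Atxn10* by *Safb2* (0.95), *Cdk9* (0.95) and *Nudcd3* (0.95). *Ppp2r2b* was followed by *Dok5* (0.92), *Vmn2r29* (0.88) and *Slc25a40* (0.88), and *Tbp* by *Xrn2* (0.86), *AW046200* (0.82) and *Ube2n* (0.82). *Atxn3* was followed by *Ypel1* (0.86), *Dnmt3a* (0.83) and *Stx16* (0.83), and *Atxn7* by *Gm35188* (0.77), *Exd1* (0.77) and *Gm39323* (0.76). Among the 9 genes themselves the closest pair was *Atxn10* and *Htt* (0.82), and the most opposed was *Atxn3* and *Atxn7* (-0.24).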

How the data were processed

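Per mouse, the authors deposited raw UMI counts for each gene and nucleus. Their alignment was by CellRanger to the mm10 genome, to which human *ATXN1* had been added, and it counted introns too. Debris was removed with DIEM, with a higher UMI minimum in the first sequencing run. Nuclei had a median of 7100 and 7253 UMIs in the mice of the inferred first run, against 2246.5 to 6680.5 in the second. The part of the minimum in this was not tested. Nucleus labels are the authors' SingleR annotation. No doublet caller was run. The run of each mouse was inferred from library numbers in the labels. Replicates are separate mice.

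Counts were summed per mouse and label. The quasi-likelihood test of edgeR 4.0.16 in R 4.3.3 was used with TMM factors, filterByExpr (minimum count 10, minimum total 15) and Benjamini-Hochberg adjustment over all genes tested. The terms were genotype and run within a label, and mouse and label between labels. All 9 genes are named throughout. For each, the paralog or partner with the largest called difference and the 3 genes most alike in level are named, and other ataxia genes only where called. The genes and lists were chosen with earlier results of these data known. As alternatives, library size alone, RLE factors, DESeq2 1.42.0, no filter on low counts, nuclei of at least 3000 UMIs, nuclei whose label matched their cluster, no run term, a replicate block, WT mice only, each mouse left out, and limma 3.58.1 with scran 1.30.0 on single nuclei were tried. The edgeR steps were tested on simulated data. Same-numbered SCA1 and WT mice deviated together from their genotype means, with every correlation over 0.1, in 7 of 14 sums. The deviations were not adjusted for run, and the mice numbered 1 were the only ones of the inferred first run. These correlations therefore cannot tell pairing from a shared run. Sequences are from the GRCm38 genome, and the codon runs of some polyglutamine genes are not reported here.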

Additional observations from a re-analysis of the deposited data

How the results depend on the processing

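No genotype or interaction call was gained for the 9 genes under any alternative run. The number of calls over all genes in the genotype tests, 3 in the fits as reported, was 102 with DESeq2, 11 with RLE factors, 379 without the filter, 1 without the run term and 220 with the replicate block, and ranged from 3 to 22 with a mouse left out (8 without SCA1 mouse 1, 22 without SCA1 mouse 2, 9 without WT mouse 1, 6 without WT mouse 2 and 5 without WT mouse 3). Without SCA1 mouse 1 or WT mouse 1 the inferred first run holds a single mouse, which the run term absorbs. The genotype fits without either of them thus compare only mice of the second run. Same-numbered mice correlated from 0.47 to 0.87 for number 1, from 0.041 to 0.31 for number 2 and from 0.43 to 0.78 for number 3. The correlation was thus weakest for number 2 in every sum. The replicate block changed no call of the 9 genes and gave 4 calls in PCs and all nuclei for *Itpr1* and *Cacna1g* of the ataxia genes. In PCs, BG, VA and OL together, the test on single nuclei called 1047 pairs of gene and label where the sums called 1. It takes nuclei as replicates and also differs in tool and normalization. Interaction calls over all genes, 8 as reported, were 4 with library size only and 0 to 42 with a mouse left out (4 without SCA1 mouse 1, 2 without SCA1 mouse 2, 0 without SCA1 mouse 3 and 42 without WT mouse 1). In the 7 labels with enough nuclei they were 6, and 3 in nuclei whose label matched their cluster. With WT mice only, a smaller set of samples, the label calls fell to 24 of the 9 genes' pairs (13 higher and 11 lower) and to 38315 over all genes. With a mouse left out, these calls ranged from 38 to 47 (21 to 25 higher, 17 to 24 lower), and from 64875 to 73663 over all genes. With library size only, called PC values changed sign for *Atxn7* (-0.0459), *Htt* (-0.393), *Ppp2r2b* (-0.0113) and *Spg7* (-0.0431). Of the 47 label calls, 21 held under every alternative that could be run for them. Calls in Dcn.Nnat nuclei, Slc17a6.Nrgn neurons and Pvalb-Rab3b, Pvalb-Chrm2 and Lgi2 interneurons had 12 alternatives, and the others 13. In those labels some mouse had too few nuclei whose label matched their cluster for a test. In the genotype tests of PCs the interval of *Tbp*, with few UMIs, was the widest, and over all nuclei that of *Ppp2r2b*, the gene with the most UMIs. Except where stated, the cause was not tested.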
